A study of Nomascus leucogenys with 9 samples.

Results

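The genes described here form the switch that carries a cell from G1 into S phase. They are the D-type cyclins CCND1, CCND2 and CCND3, their kinases CDK4 and CDK6, the kinase inhibitors CDKN2A, CDKN2C and CDKN1B, and the retinoblastoma gene RB1. They were taken by a fixed list of 9 human-format Ensembl gene identifiers, each paired with its symbol in that list, and all 9 were found among the 15356 rows of the table (0 absent). RNA-seq had been performed on total RNA from EBV-transformed lymphocyte lines of 9 northern white-cheeked gibbons (Nomascus leucogenys), with 1 line per animal and 1 library per line. The labels give no treatment, genotype or contrast, so the lines were 1 untreated group, numbered in label order: Asia is line 1, Bobby line 2, China line 3, Khao line 4, Melouprey line 5, Nancy line 6, Phyllis line 7, Ricky line 8 and Vok line 9. What was open to description was each gene's level in every line, and how far the genes varied among animals and with each other. Animal, culture and viral transformation cannot be told apart in any line.

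D-type cyclins bind CDK4 or CDK6, and the active kinases phosphorylate the RB1 protein, which then releases the E2F factors that transcribe S-phase genes. The INK4 inhibitors, encoded by CDKN2A and CDKN2C, bind the kinases themselves, whereas the CDKN1B protein (p27) binds cyclin and kinase complexes and blocks cyclin E with CDK2. Epstein-Barr virus acts on this switch when it immortalises B cells: its nuclear antigen EBNA2 leads to induction of CCND2, and some of its EBNA3 proteins repress CDKN2A.

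Values were the authors' normalised expression values on a logarithmic scale, taken as log2, with no length correction, so levels of different genes were not ranked against each other. Each line had 1 value per gene and no technical repeat, so neighbouring lines in an order of levels have no error of their own to be compared with, and errors below are SDs over the 9 lines. The depth of the libraries is unknown. The columns had been brought to nearly equal sums before deposit, between 13728358 and 14059842 after raising to base 2 (called the linear total). Of all rows, 12590 had a mean of at least 1 part per 1000000 (ppm) of that total and were kept, and all 9 genes were among them (5.15 ppm for CDKN2A to 2244 ppm for CCND2, uncorrected for length). The table carries no symbols, so B-cell markers, markers of other cells, and partners such as cyclin E, CDK2 and the E2F factors were not analysed here, and the labelled cell type was not checked against markers.

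CCND2, a cyclin that EBV-transformed B cells are known to use, differed 2.24-fold between its lowest and highest line (ENSG00000118971, 14.88 ± 0.42 log2 units, SD, n = 9). Its values in lines 1 to 9, in that order, were 14.23, 14.87, 14.25, 15.17, 15.39, 15.18, 15.25, 14.89 and 14.71. Lines 1 and 3 were the lowest, 0.02 log2 units apart, and line 5 was the highest, 1.16 log2 units above line 1. A predicted lncRNA overlaps the CCND2 span in the RefSeq gene table for the gibbon assembly Asia_NLE_v1, and whether counting used strand is not given in the sources used here.

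CCND3, the other D-type cyclin common in lymphocytes, varied less (ENSG00000112576, 10.05 ± 0.27 log2 units, SD, n = 9). It ran from 9.69 in line 1 through a median of 9.97 to 10.59 in line 6, a 1.86-fold range. Line 6 stood 0.35 log2 units above line 7, the next highest, and without line 6 the range was 0.55 log2 units in place of 0.90.

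CCND1, a cyclin typical of non-lymphoid cells and of mantle cell lymphoma, had the widest range of the 9 genes (ENSG00000110092, 6.91 ± 0.77 log2 units, SD, n = 9). In lines 1 to 9, in that order, it stood at 7.41, 6.36, 7.02, 6.05, 6.84, 8.69, 6.49, 6.63 and 6.66. The highest and the lowest line differed 6.23-fold (2.64 log2 units). Line 6 alone accounted for much of that width: it lay 1.27 log2 units above line 1, the next highest, and without it the range was 1.37 log2 units. CCND1 averaged 10.1 ppm of the linear total, and the part of cells of another type in the value of line 6 was not tested.

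**Figure D1:**
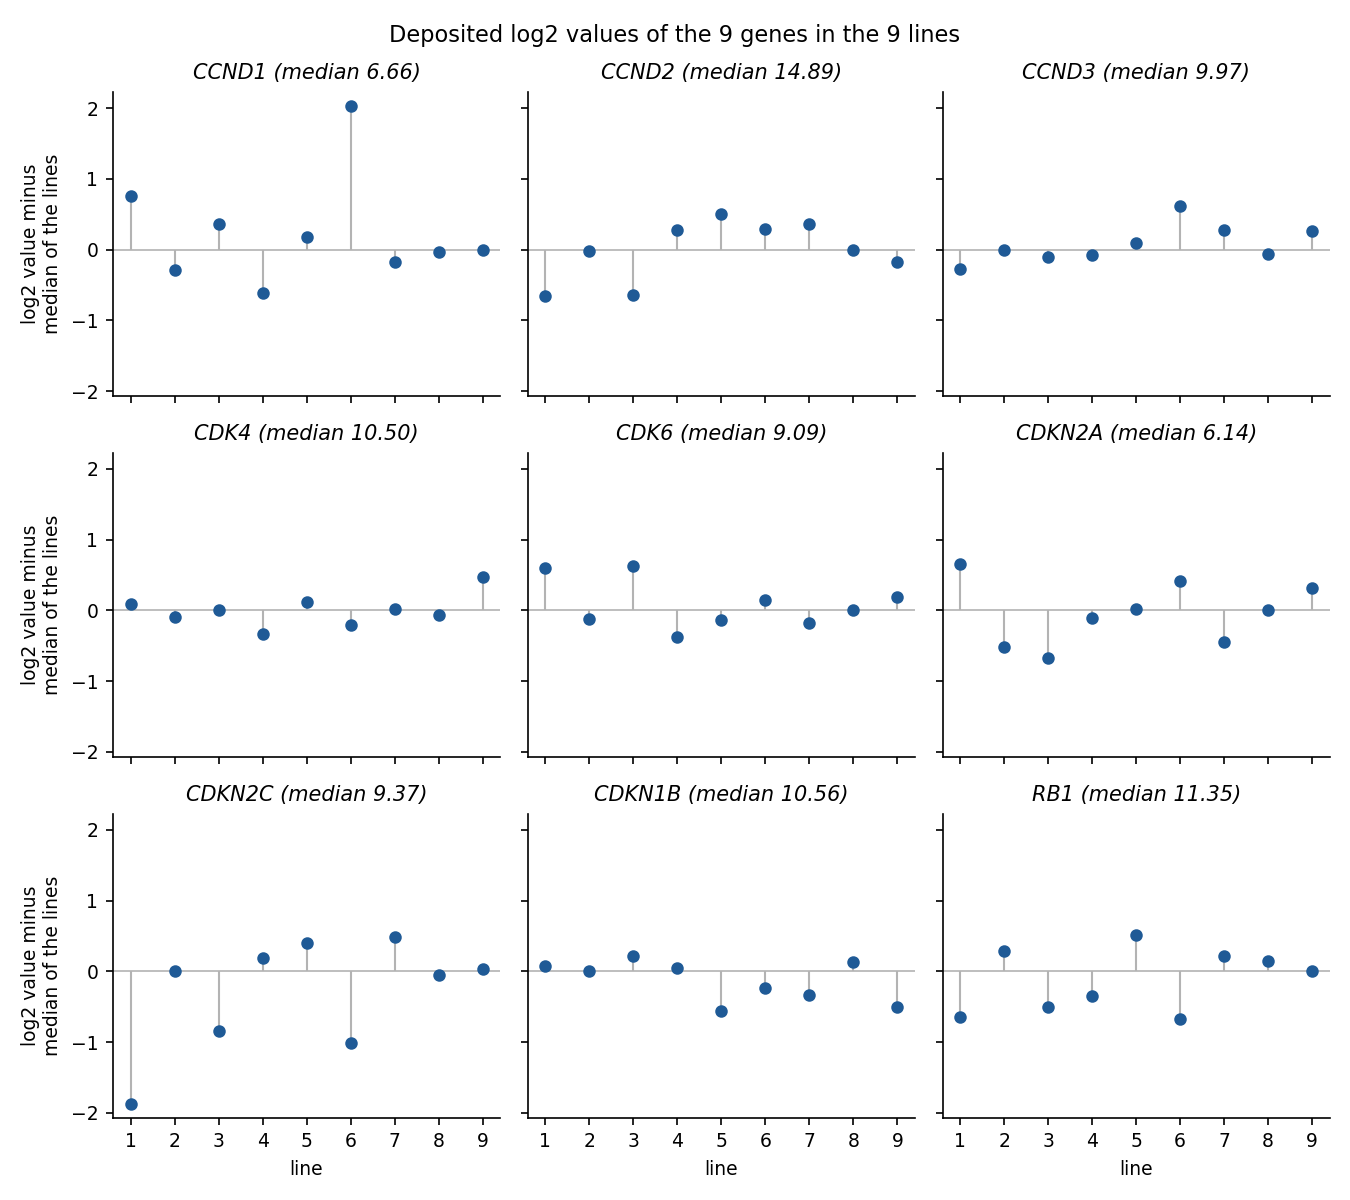
Each panel shows 1 gene, with the line number on the x axis and, on the y axis, its deposited log2 value minus its median over the 9 lines, the median being printed above the panel. CDKN2C lies furthest below its median in line 1 and CCND1 lies furthest above it in line 6, while CDK4 and CDKN1B stay within 0.57 log2 units of theirs.

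Of the catalytic partners, CDK4 was among the steadier genes (ENSG00000135446, 10.50 ± 0.23 log2 units, SD, n = 9). It ran from 10.17 in line 4 through a median of 10.50 to 10.97 in line 9, a 1.74-fold range. Line 9 was 0.35 log2 units above the next line, and without it the range was 0.45 log2 units in place of 0.80. TSPAN31 and MARCHF9 overlap the CDK4 span in the RefSeq gene table, so some reads may not be separable among them. That gene table need not be the annotation used for counting, which is not given in the sources used here.

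CDK6, the kinase that predominates in many blood cells, separated a pair of lines from the rest (ENSG00000105810, 9.18 ± 0.35 log2 units, SD, n = 9). Its values in lines 1 to 9, in that order, were 9.70, 8.98, 9.73, 8.72, 8.96, 9.24, 8.91, 9.09 and 9.29. Lines 3 and 1, the highest for CDK6, were the lowest for CCND2. The range was 2.004-fold, so CDK6 lay just inside a limit of 2-fold.

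The INK4 inhibitor CDKN2C, which encodes p18 and is known for restraining proliferation of plasma cells and other lymphocytes, was low in 3 lines (ENSG00000123080, 9.08 ± 0.78 log2 units, SD, n = 9). In lines 1 to 9, in that order, it stood at 7.50, 9.37, 8.54, 9.56, 9.78, 8.37, 9.86, 9.32 and 9.40. Line 1 was the lowest, lines 6 and 3 followed, and the other lines lay close together. Line 1 was 5.15-fold below line 7 (2.37 log2 units), and the range was 1.50 log2 units without line 1 and 0.54 without lines 1, 3 and 6. No gene overlaps the CDKN2C span in the RefSeq gene table.

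CDKN2A, whose locus encodes both the INK4A inhibitor and the ARF protein that acts on p53, differed 2.51-fold among lines (ENSG00000147889, 6.10 ± 0.45 log2 units, SD, n = 9). Its lowest value was 5.47 in line 3, the median was 6.14 and the highest was 6.80 in line 1, with line 6 next at 6.56. Lines 1 and 6, low for CDKN2C, were thus the highest for CDKN2A, but line 3 was the lowest for it. The row does not separate the INK4A transcript from that of ARF, and a predicted lncRNA overlaps the span.

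CDKN1B, the p27 inhibitor whose mRNA is typically high in resting lymphocytes, had the narrowest range of the 9 genes (ENSG00000111276, 10.43 ± 0.29 log2 units, SD, n = 9). It ran from 9.995 in line 5 through a median of 10.56 to 10.77 in line 3, a 1.71-fold range. Lines 5, 9, 7 and 6 were the lowest, between 9.995 and 10.33, and the other lines lay between 10.56 and 10.77.

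RB1, the substrate of the D-cyclin kinases, split the lines in an order much like that of CDKN2C (ENSG00000139687, 11.23 ± 0.44 log2 units, SD, n = 9). In lines 1 to 9, in that order, it stood at 10.70, 11.63, 10.84, 11.00, 11.86, 10.67, 11.56, 11.49 and 11.35. Lines 6, 1 and 3 were the lowest for both genes, while line 4 was low for RB1 but among the 3 highest for CDKN2C. The range of RB1 was 2.28-fold. LPAR6 and a pair of pseudogenes lie within or across the RB1 span in the RefSeq gene table.

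Taking the list as a whole, 6 of the 9 genes (66.7%) spanned at least 2-fold between lines, against 26.4% of the 12590 kept rows. They were CCND1, CDKN2C, CDKN2A, RB1, CCND2 and CDK6, and the count was 5 with the medians of the lines made equal (CDK6 at 0.998 log2 units) or with a pseudocount of 1 ppm (CDK6 at 0.98). CCND1 and CDKN2C spanned at least 4-fold (22.2% of the list), against 6.18% of kept rows. The median range was 1.16 log2 units for the 9 genes and 0.68 for all kept rows. Ranges at least as wide as that of CCND1 were found in 2.61% of kept rows, and 3.82% had one at least as wide as that of CDKN2C. The range of CDKN1B was ordinary, since 41.0% of kept rows had one at least as wide. With 1 line left out, CDK6 fell short of 2-fold without line 3 (0.97 log2 units) or line 4 (0.81), and RB1 without line 5 (0.95). Without lines 1, 3 and 6 together, 0 of the 9 genes and 13.8% of kept rows reached 2-fold, but these lines were chosen after their values were seen and hold several of the extremes, so ranges shrink by that choice.

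**Figure D2:**
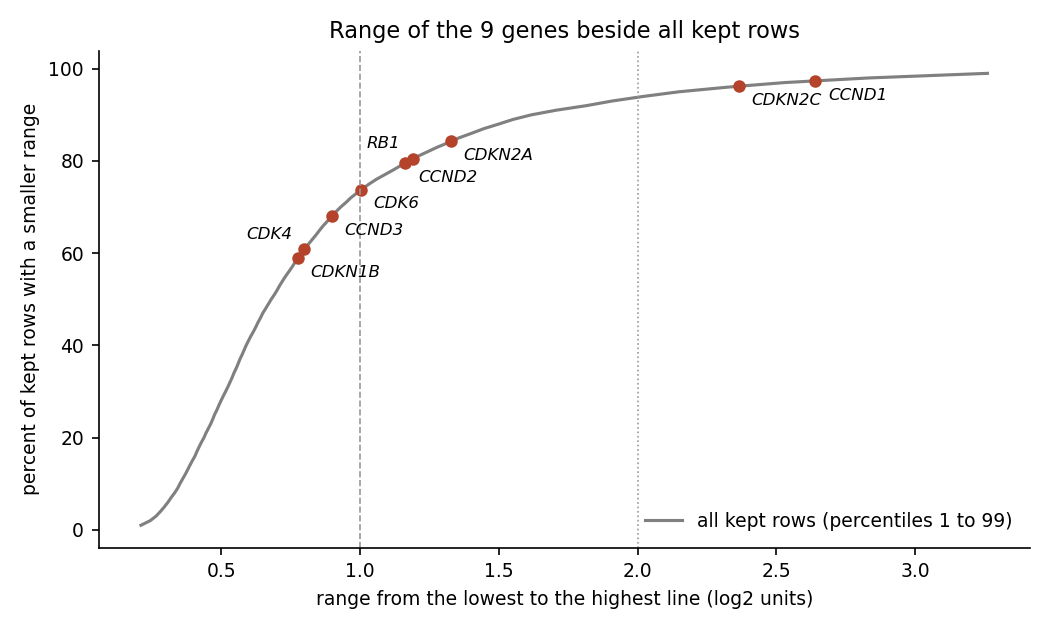
The x axis is the range from the lowest to the highest of the 9 lines in log2 units, and the y axis is the percent of kept rows with a smaller range; the grey curve gives all 12590 kept rows and each red point 1 gene. The dashed line marks 2-fold and the dotted line 4-fold, and only CCND1 (2.64) and CDKN2C (2.37) lie to the right of the latter.

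Gene length cancels when the same ratio of 2 genes is compared between lines, so the balance between partners was followed by log2 ratio. The level of a ratio in any 1 line still carries the lengths of both genes. The CCND2 to CCND3 ratio peaked at 5.32 and 5.27 in lines 5 and 4. It was lowest in lines 3, 9, 1 and 6, at 4.38, 4.47, 4.53 and 4.59. The balance between these cyclins therefore moved 1.92-fold among lines. The CDK6 to CDK4 ratio was highest in lines 3 (-0.77), 1 (-0.90) and 6 (-1.06) and lay between -1.69 and -1.35 in the others. Lines 1, 3 and 6 thus had more CDK6 relative to CDK4 and, with line 9, less CCND2 relative to CCND3 than the other lines.

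Inhibitor to kinase ratios moved further. The CDKN2C to CDK4 ratio was lowest in lines 1, 3, 6 and 9, at -3.10, -1.96, -1.93 and -1.57, and spanned -1.12 to -0.62 elsewhere. Its range was 5.58-fold (2.48 log2 units), or 1.35 log2 units without line 1. The CDKN2A to CDK4 ratio did not follow it: lines 6 (-3.74) and 1 (-3.80) were highest and line 3 (-5.03) was lowest, a 2.45-fold range. The CDKN1B to CCND3 ratio fell into separate levels, with lines 6, 9, 5 and 7 between -0.26 and -0.02 and lines 2, 4, 8, 3 and 1 between 0.59 and 0.95.

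The genes were then compared pairwise across the 9 lines by Pearson's r, with two-sided exact permutation tests over all orders of the lines. The Benjamini-Hochberg adjustment covered 113301 relations, those of each of the 9 genes with every kept row. None of the 36 pairs passed an adjusted p of 0.05, and neither did any relation of a gene with another row (0 of 113301, 0%). At an unadjusted p under 0.05 there were 4 pairs, or 11.1%, against 14.4% of all 113301 relations, and Spearman's rho gave 5 pairs unadjusted and 0 adjusted. Without line 6, the unadjusted count was 9 of the 36 pairs. The share of all relations without that line is not given here, so this count has no background beside it. Over all 9 lines the share of the pairs was thus no higher than that of these genes with any row. The median absolute r was 0.42 for the 36 pairs and 0.35 for all relations.

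CCND2 and CDK6 ran in opposite directions (r = -0.877, exact permutation p = 0.0035, adjusted p = 0.162, n = 9; rho = -0.767, p = 0.021). Leaving out lines 1 and 3, which lay farthest from the CCND2 median, r was -0.499, and without lines 1, 3 and 6 it was -0.693. CDKN2C and RB1 ran together (r = 0.823, exact permutation p = 0.0038, adjusted p = 0.165, n = 9; rho = 0.750, p = 0.025). Without lines 1 and 6 that r was 0.703, but within the 6 lines other than 1, 3 and 6 it was 0.302.

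CDK6 and CDKN2C ran in opposite directions (r = -0.824, exact permutation p = 0.0078, adjusted p = 0.189, n = 9; rho = -0.783, p = 0.017), with r = -0.598 without lines 1 and 3 and -0.459 without lines 1, 3 and 6. CCND2 and CDKN2C had r = 0.717 (exact permutation p = 0.028, adjusted p = 0.282, n = 9; rho = 0.667, p = 0.059). Leaving out lines 1 and 3 took that r to 0.171, while leaving out lines 1, 3 and 6 took it to 0.878, so it depended on which lines were kept. By rank, CCND3 and CDKN1B were also opposed (rho = -0.750, exact permutation p = 0.025, adjusted p = 0.360, n = 9), although r was -0.620 (p = 0.072). That r was -0.845 without lines 1 and 6 and -0.805 without lines 1, 3 and 6, so it did not need those lines. CCND1 and CDK6 ran together by rank (rho = 0.733, exact permutation p = 0.031, adjusted p = 0.377, n = 9), while r over all lines was 0.490 (p = 0.18). That r was 0.801 without lines 1 and 6 and 0.673 without lines 1, 3 and 6. CDKN2A had no pair at an unadjusted p under 0.05 by either measure.

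**Figure D3:**
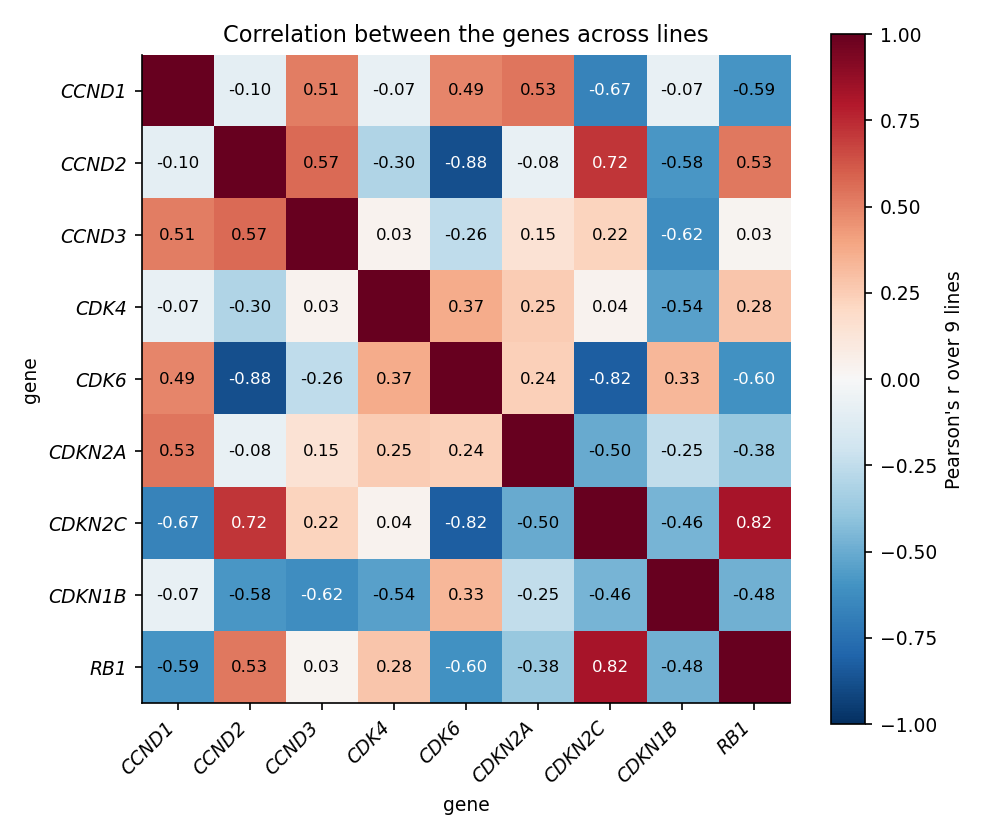
Both axes list the 9 genes, and each cell gives Pearson's r between a pair over the 9 lines, from -1 (blue) to 1 (red). CCND2 with CDK6 (-0.88), CDK6 with CDKN2C (-0.82) and CDKN2C with RB1 (0.82) are the strongest cells, and none of the 36 pairs passed the adjusted threshold.

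On the main component of variation in the rest of the transcriptome, lines 1, 3 and 6 also stood apart, and CDKN2C followed that separation closely. The first principal component of the kept rows, computed without the 9 genes, held 34.2% of the variance. Lines 1, 6 and 3 scored 47.93, 20.11 and 18.75 on it, and the others scored -20.91 to -9.92. Line 9 was among these others at -10.37. Over kept rows its deviations from row medians had an SD of 0.40 log2 units, near lines 3 (0.39) and 6 (0.42). The separation is thus that of this component, not of all variation. The gap below line 3 was 28.67, close to the 27.82 between line 1 and line 6. CDKN2C correlated with the score at r = -0.987 (exact permutation p = 0.00017, n = 9; rho = -0.933, p = 0.00075). Of the 12581 other rows, 0 had an absolute r at least as large, although those rows shaped the component and CDKN2C did not. Adjusted over all 12590 kept rows, p was 0.054, so the relation missed the threshold of 0.05, which 0.0635% of kept rows passed, and 0 of the 9 genes did.

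The relation of CDKN2C was r = -0.944 without lines 1 and 6, the farthest on the component. Within the 6 lines other than 1, 3 and 6 it was -0.740 (exact permutation p = 0.11, n = 6). With each row divided by its SD before the decomposition, r was -0.777. RB1 followed the component in the same direction (r = -0.840, exact permutation p = 0.0012, adjusted p = 0.063, n = 9; rho = -0.900, p = 0.0020; r = -0.766 without lines 1 and 6 and -0.555 within the 6 lines).

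CDK6 followed it in the other direction (r = 0.839, exact permutation p = 0.0070, adjusted p = 0.101, n = 9; rho = 0.767, p = 0.021; r = 0.892 without lines 1 and 6). CCND2 had r = -0.708 (exact permutation p = 0.029, adjusted p = 0.178, n = 9; rho = -0.667, p = 0.059; r = -0.899 without lines 1 and 6). Within the 6 lines other than 1, 3 and 6, CDK6 had r = 0.511 (exact permutation p = 0.28, n = 6). CCND2 had r = -0.834 within those lines (exact permutation p = 0.042, n = 6). With rows divided by their SD, r over all 9 lines was 0.431 for CDK6 and -0.441 for CCND2. With line 1 alone left out and the component computed again, r fell in size to -0.339 for CCND2 and 0.566 for CDK6, while RB1 had -0.873. The other 5 genes had an unadjusted p above 0.05, and CDK4 had an r of -0.014. So 4 of the 9 genes reached an unadjusted p under 0.05, against 22.4% of kept rows. This component was examined after its separation of lines had been seen, and what sets lines 1, 3 and 6 apart was not tested.

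**Figure D4:**
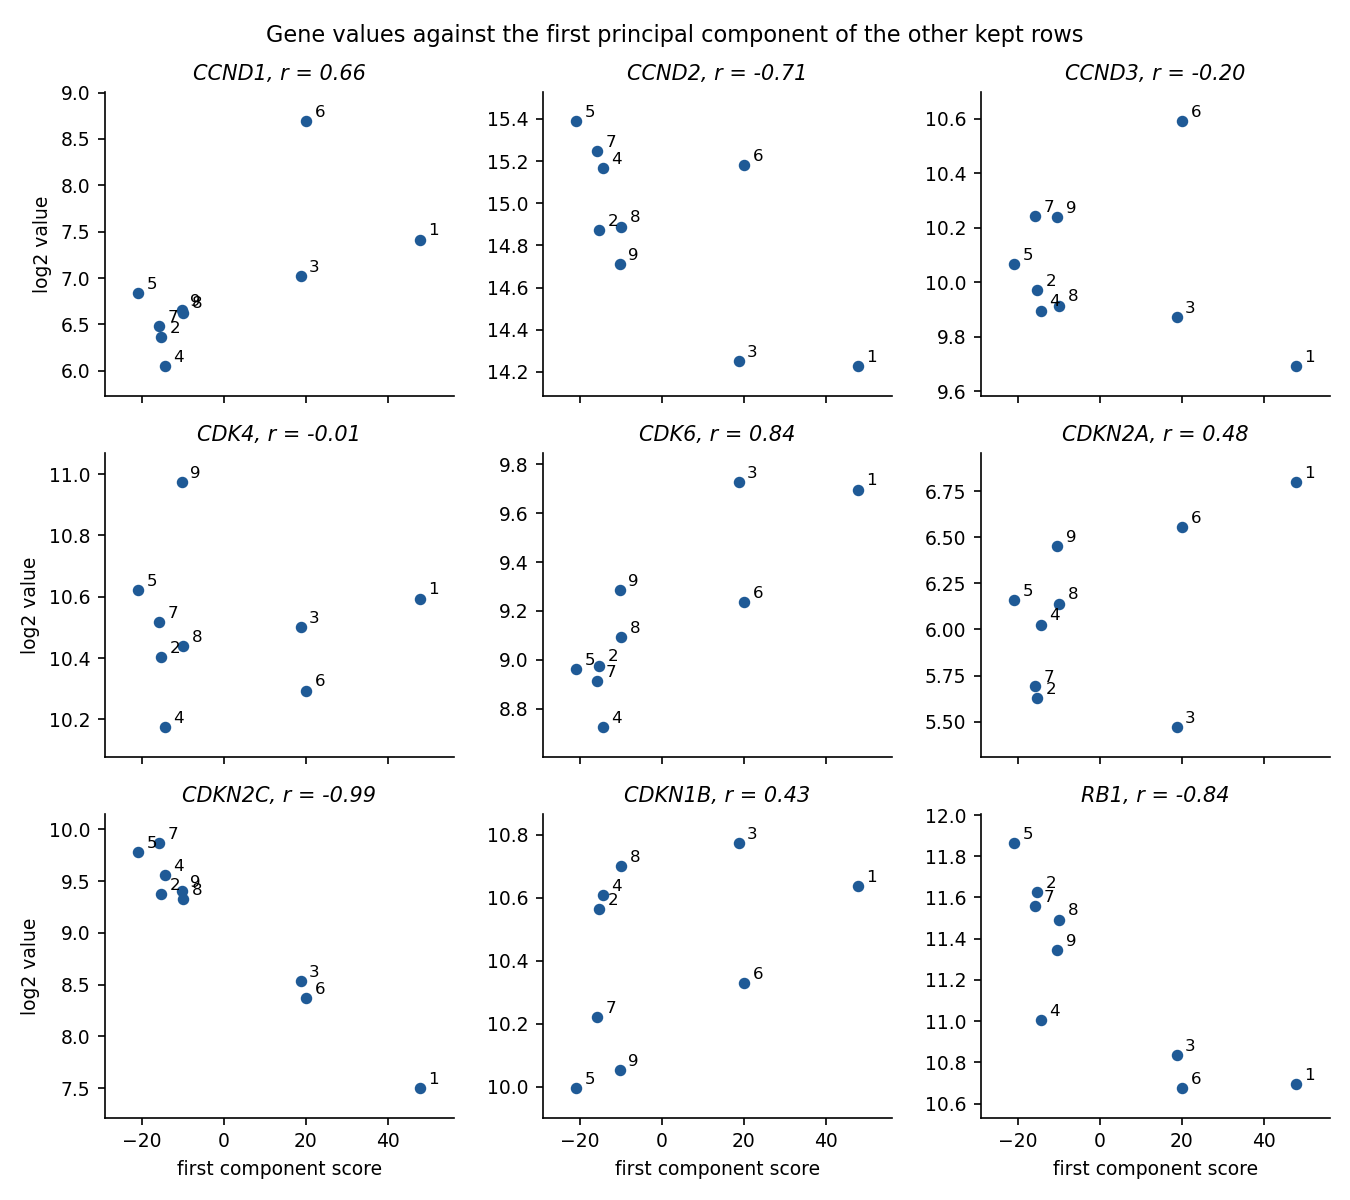
Each panel plots the deposited log2 value of 1 gene against the score of each line on the first principal component of the other kept rows, with points numbered by line and r printed above. CDKN2C descends along the whole axis (r = -0.99), RB1 and CCND2 descend less tightly, CDK6 rises, and CDK4 shows no slope.

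The genes were last set beside the level of S-phase and G2M gene lists, which earlier work on these data had shown to vary by small amounts among the lines. The lists hold identifiers that a published cell cycle classifier, trained on human cells, uses as markers of a phase. CDK4, CDK6 and RB1 are on the S list and CCND3 on the G2M list, and all 4 were left out, which left 173 and 168 kept rows. The S list level, a mean deviation from row medians, ran from -0.13 log2 units in line 4 to 0.15 in line 5, and the G2M level from -0.09 in line 4 to 0.17 in line 9. No relation of the 9 genes passed an adjusted p of 0.05, which 0.608% of all 24839 row and list relations did.

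CDK4, the kinase, had the largest r of the 9 genes with the G2M list and a smaller one with the S list. It had r = 0.832 with the G2M level (exact permutation p = 0.0045, adjusted p = 0.087, n = 9; rho = 0.733, p = 0.031; r = 0.693 without lines 7 and 9). With the S level it had r = 0.705 (exact permutation p = 0.025, adjusted p = 0.176, n = 9; rho = 0.767, p = 0.021; r = 0.518 without lines 5 and 9). RB1 reached an unadjusted p under 0.05 with the S level (r = 0.778, exact permutation p = 0.021, adjusted p = 0.161, n = 9; rho = 0.733, p = 0.031; r = 0.727 without lines 5 and 9), and its r with the G2M level was 0.344 (p = 0.36). Whether the 2 relations of RB1 differ was not tested.

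CDKN1B, the inhibitor, had r = -0.738 with the S level (exact permutation p = 0.031, adjusted p = 0.192, n = 9; rho = -0.617, p = 0.086), which became -0.398 without lines 5 and 9 and so rests on those lines. These were 3 of 9 genes for the S list and 1 of 9 for the G2M list at an unadjusted p under 0.05, against 22.9% and 19.0% of all rows. The 4 relations became 2 without line 5 and 1 without line 9. CDKN2C had r = 0.608 with the S level (exact permutation p = 0.078) and 0.311 with the G2M level (p = 0.41).

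**Figure D5:**
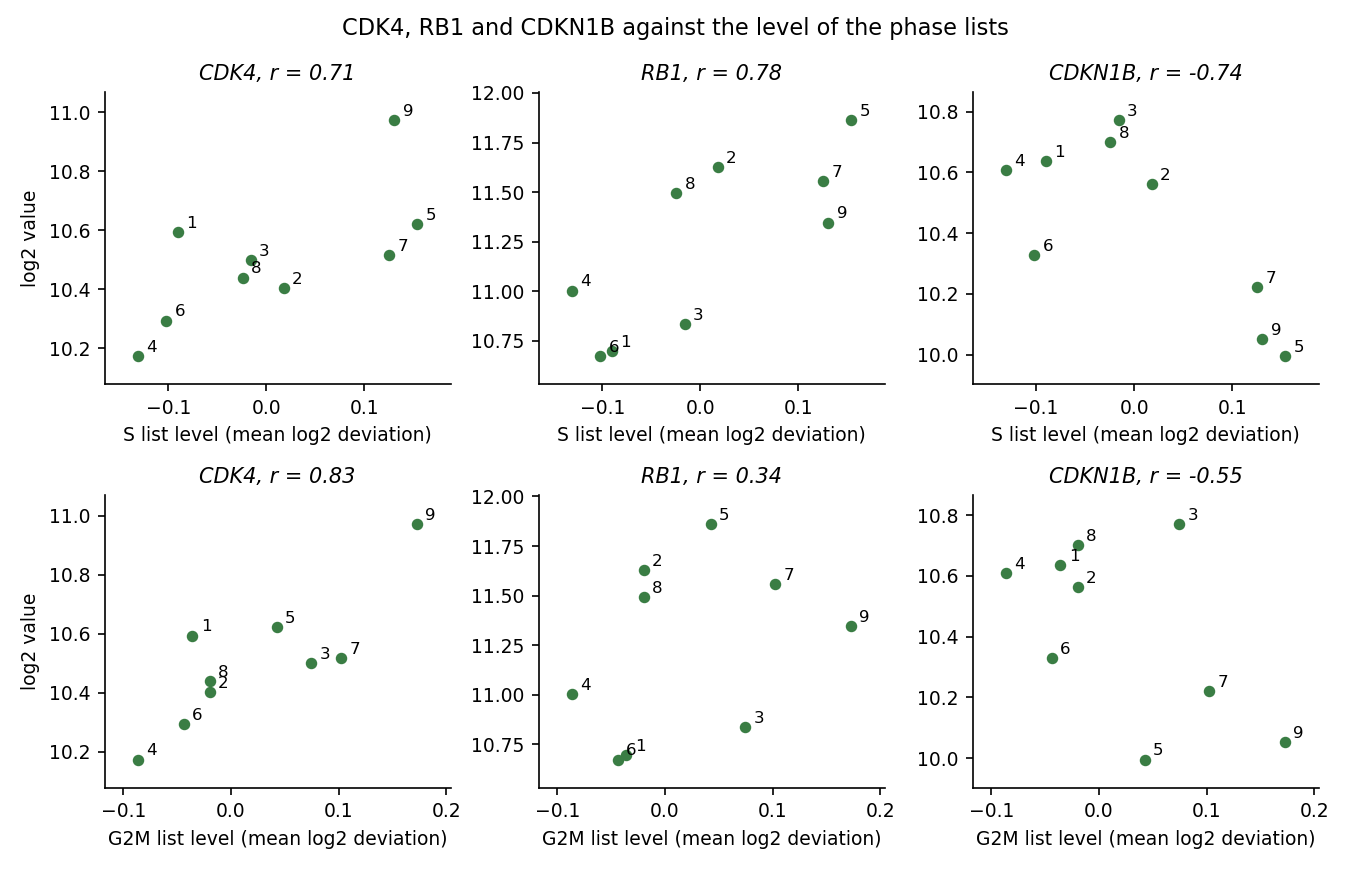
The y axis gives the deposited log2 value of CDK4, RB1 or CDKN1B and the x axis the mean log2 deviation of the S list (upper row) or the G2M list (lower row), with points numbered by line. With the S list r is 0.71 for CDK4, 0.78 for RB1 and -0.74 for CDKN1B, and with the G2M list it is 0.83 for CDK4; none passed the adjusted threshold.

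For the pair of genes with the widest ranges, the rows of the whole table with the most similar and the most opposed pattern over the 9 lines are given by identifier, since the table holds no symbols. CCND1 was most like ENSG00000185483 (r = 0.981), a row that also had its highest value in line 6, 6.03 log2 units against 4.98 in line 1 and 4.10 in line 2, the lowest. It was most opposed to ENSG00000106524 (r = -0.955), which was lowest in line 6, at 7.93. CDKN2C was most like ENSG00000189339 (r = 0.963), which ran from 8.22 in line 1 to 9.15 in line 5. It was most opposed to ENSG00000126353 (r = -0.986), which had 13.90, 13.31 and 13.25 log2 units in lines 1, 6 and 3 and 12.72 to 12.996 elsewhere. The adjusted exact permutation p of these 4 relations lay between 0.062 and 0.109, so none passed the threshold.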

How the data were processed

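The data were a single expression table with a column per line (9 in all). Its entries, as deposited, are logarithmic and were taken as log2 values; their base, the normalization, the build, the annotation and strandedness are not given in sources used here. Trimmomatic, STAR, edgeR and DESeq2 are named, without role or version, per the submitters' processing notes. Columns had been scaled before deposit, so depth is unknown, and if the transformation shrinks low rows, ranges of low genes are understated. The header joins its last names by a space and was split at white space; 0 per-sample columns were left unused. Identifiers are human although the animals are gibbons, and 0 matched the RefSeq gene table (33914 genes), so the planned pathway and marker lists could not be used.

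The filter kept rows averaging 1 ppm or more. Relations across lines were tested by exact enumeration (Python 3.11.15, numpy 2.4.6, numba 0.67.0), with Benjamini-Hochberg adjustment over the whole table, a threshold of 0.05, and a check on simulated data. The phase lists came from a data file in scran 1.30.0 (R 4.3.3): identifiers that are the higher member in at least 90% of at least 20 pairs. The 9 genes, the lists and the tests were chosen with earlier results of these data known. Each of the 9 genes is named, with the rows most like and most opposed to the 2 of widest range. The alternatives were other scalings, a pseudocount of 1 ppm, filters, Spearman's rho and leaving out lines. Each p-value is the share of orders of the lines that gave an absolute r or rho at least as large. The ranges and ratios were not tested.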

Additional observations from a re-analysis of the deposited data

How the results depend on the processing

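The scalings, pseudocount, filters, Spearman's rho and single-line omissions were planned, whereas the comparison with the first component, with all its alternatives, and the joint omission of lines 1, 3 and 6 were added after the data were seen. The number of genes spanning at least 2-fold was 5 or 6 under 3 other scalings or pseudocounts and between 5 and 6 with any 1 line left out, but 0 without lines 1, 3 and 6, which hold several of the extremes. The number of kept rows spanning 2-fold was 2469 with a filter of 5 ppm and 3521 with none, between 2772 and 3293 with 1 line left out, and 1733 without lines 1, 3 and 6. The adjusted count of gene pairs, of gene and list relations and of genes following the first component was 0 in every setting run for each. That says little about stability, because the smallest attainable p rises when a line is dropped. Unadjusted pairs numbered 4 or 5 under other settings and between 3 and 9 with 1 line left out. The highest, 9, was without line 6, and no share of all gene and row relations is given for that setting. Unadjusted gene and list relations numbered 3 or 4 under other settings and between 1 and 5 with 1 line left out, with 2 without line 5 and 1 without line 9. The r of CDKN2C with the first component stayed between -0.996 and -0.944 with 1 line left out, while that of CCND2 ran from -0.872 without line 6 to -0.339 without line 1. No r of the 4 pairs at an unadjusted p under 0.05 changed sign in any setting run. No paired analysis was possible because the labels define a single group. Without known depth, counting error in CCND1 and CDKN2A could not be separated from differences between lines.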

Other observations

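None of the 9 genes, and none of the 5 ratios, had a line that stood apart by Dixon's gap criterion for 9 values (0 of 14 sets), against 10.1% of kept rows with such a line. CCND1 came closest, where the gap below line 6 made up 0.482 of its range. Lines differed in how often they held an extreme: line 1 was lowest for CCND2, CCND3 and CDKN2C and highest for CDKN2A, and line 4 was lowest for CCND1, CDK4 and CDK6. Lines 3, 5 and 6 were each highest for 2 of the 9 genes and lowest for 1. Over all kept rows, line 1 was the highest line in 22.6% and the lowest in 14.0%, and line 4 in 11.3% and 14.4%. Line 9 was the highest in 21.7% and the lowest in 17.1% of kept rows, but among the 9 genes it was extreme only for CDK4. Lines 2 and 8 held no extreme among the 9 genes, and they were seldom extreme elsewhere: line 2 was highest in 4.17% and lowest in 4.49% of kept rows, and line 8 in 4.22% and 5.84%. The root mean square deviation of line 8 from the medians was 0.075 log2 units over the 9 genes. The SD of its deviations over kept rows, a slightly different measure, was 0.218. The same measures were 0.81 and 0.53 in line 1 and 0.84 and 0.42 in line 6.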
